A study of Mus musculus with 12 samples.

Results

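The genes described are the 3 chains of complement C1q (C1qa, C1qb and C1qc) and 7 further genes of macrophages and microglia, namely Mrc1, Cd68, Csf1r, Aif1, Cd163, Cd14 and Tyrobp. A probe was taken as a member when the platform annotation gave it the current symbol or a synonym of 1 of these 10 genes. Such a probe was found for 7 of the 10 genes, 1 probe each, so 7 of the 33012 probes on the array and 7 of the 13840 genes named there are described. Cd68, Csf1r and Tyrobp had no probe under their names and have no values here. Expression was measured on 12 arrays, 3 in each of 4 groups. The groups were hypothalamus of homozygous B6.CAST-17 congenic male mice, hypothalamus of wild type B6 male mice, skeletal muscle of B6.CAST-17 congenic male mice, and skeletal muscle of wild type B6 male mice. The congenic strain carries DNA of the CAST strain on chromosome 17 in a B6 background, and the labels used here give no treatment and no age. Only the hypothalamus titles read short congenics, and the labels do not state whether both tissues came from the same congenic line. The series compared the strains to ask which transcripts accompany the greater physical activity and carbohydrate preference of the congenic mice. The series text counts 3 mice per strain as biological replicates, and no label says whether an array number stands for the same mouse in both tissues.

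C1q is the recognition part of the first complex of the classical complement pathway. Its A, B and C chains join into triplets with a collagen-like stalk and a globular head, and the heads bind antibody complexes, dying cells and, in the developing brain, synapses. Unlike most complement proteins, which the liver makes, C1q is made mainly by tissue macrophages and, in the brain, by microglia. Mrc1 (the mannose receptor) and Cd163 (the receptor for haemoglobin bound to haptoglobin) are scavenger receptors found on resident macrophages of tissues such as muscle and, in brain, on macrophages around vessels and meninges more than on microglia of the parenchyma. Cd14 passes bacterial lipopolysaccharide to toll-like receptor signalling. Aif1 encodes Iba1, an actin-binding protein used to stain microglia. Csf1r, the receptor that keeps macrophages and microglia alive, and Tyrobp, the signalling adaptor of Trem2, could be followed only through the genes listed as their partners. Cd68, a lysosomal glycoprotein, had no partner list of its own.

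Values are signal intensities on a log2 scale, so a difference of 1 is a 2-fold difference. The base was inferred from the range of the values, 5.35 to 21.1. The 6 arrays of a tissue shared a single distribution, with a median of 8.98 in hypothalamus and 9.12 in muscle, so the tissues appear to have been scaled separately, and a level set across them depends on that scaling. The tissue labels went with the muscle and neuronal markers. The array medians of 10 skeletal muscle markers lay between 8.79 and 9.37 in hypothalamus and between 19.77 and 20.02 in muscle. Those of 10 neuronal markers lay between 11.5 and 16.1 in hypothalamus and between 8.18 and 8.75 in muscle. Wild type hypothalamus array 1 stood apart, also in glial markers. The median of 7 oligodendrocyte markers was 7.90 on this array, against 9.78 to 12.7 on the other 5 hypothalamus arrays. In muscle it was 8.36 to 9.02. For 6 astrocyte markers this array had a median of 10.2, against 12.3 to 12.8 on the other 5 and 8.19 to 9.64 in muscle. Its Spearman correlation over all probes with the other hypothalamus arrays was 0.420 to 0.461, its neuronal marker median was 11.5 against 14.9 to 16.1 on the other 5 arrays, and its median of 34 macrophage and microglia markers was 11.3 against 10.2 to 10.7. The log2 of the summed signal of those 34 genes went the other way, at 19.5 against 20.1 to 21.4 on the other 5 arrays. Hypothalamus values of the measured genes and counts over gene lists are therefore given with and without wild type array 1. Congenic hypothalamus array 1 differed in another list. Its median of 7 anterior pituitary markers was 14.9, against 8.38 to 10.3 on the other 5 hypothalamus arrays. It was kept in both sets. In these bulk samples, more cells of a type and more RNA per cell cannot be told apart.

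In skeletal muscle the 3 C1q chains and Cd14 had higher signals on every congenic array than on any wild type array, by 0.82 to 1.09 on the log2 scale, but none of the 7 measured genes passed the test over all probes. C1qa read 16.67, 16.44 and 16.60 on the congenic muscle arrays, against 15.88, 15.33 and 15.52 on the wild type muscle arrays. C1qb read 14.27, 14.37 and 14.46 in congenic muscle, against 13.73, 13.18 and 13.43 in wild type muscle. C1qc read 15.02, 14.88 and 14.73 in congenic muscle, against 14.58, 13.71 and 13.89 in wild type muscle. For each chain the 3 congenic values lay close together and the wild type values spread wider, with wild type array 1 the nearest to the congenic arrays for all 3 chains. C1qa averaged 16.57 ± 0.12 in congenic muscle and 15.58 ± 0.28 in wild type muscle (SD, n = 3 each), C1qb 14.37 ± 0.10 in congenic and 13.45 ± 0.28 in wild type muscle, and C1qc 14.88 ± 0.14 in congenic and 14.06 ± 0.46 in wild type muscle.

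The strain difference in muscle, congenic minus wild type, was 0.99 for C1qa, a 1.99-fold difference, with an SE of 0.18 and a 95% interval of 0.59 to 1.39. By limma's unadjusted p of 0.000268 the probe ranked 19 of 33012, and its Benjamini-Hochberg adjusted p over all probes was 0.465. C1qb differed by 0.92, or 1.89-fold (interval 0.48 to 1.36, adjusted p 0.835), and C1qc by 0.82, or 1.76-fold (interval 0.29 to 1.35, adjusted p 0.835). By p, C1qb ranked 35 and C1qc 174. Thus none of the C1q chains was called by limma at an adjusted p of 0.05, although each interval lay above 0. The 3 chains are neighbours in the genome, in the order C1qb, C1qc, C1qa between Ephb2 and Epha8 on chromosome 4, and so lie on another chromosome than the congenic segment.

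**Figure D1:**
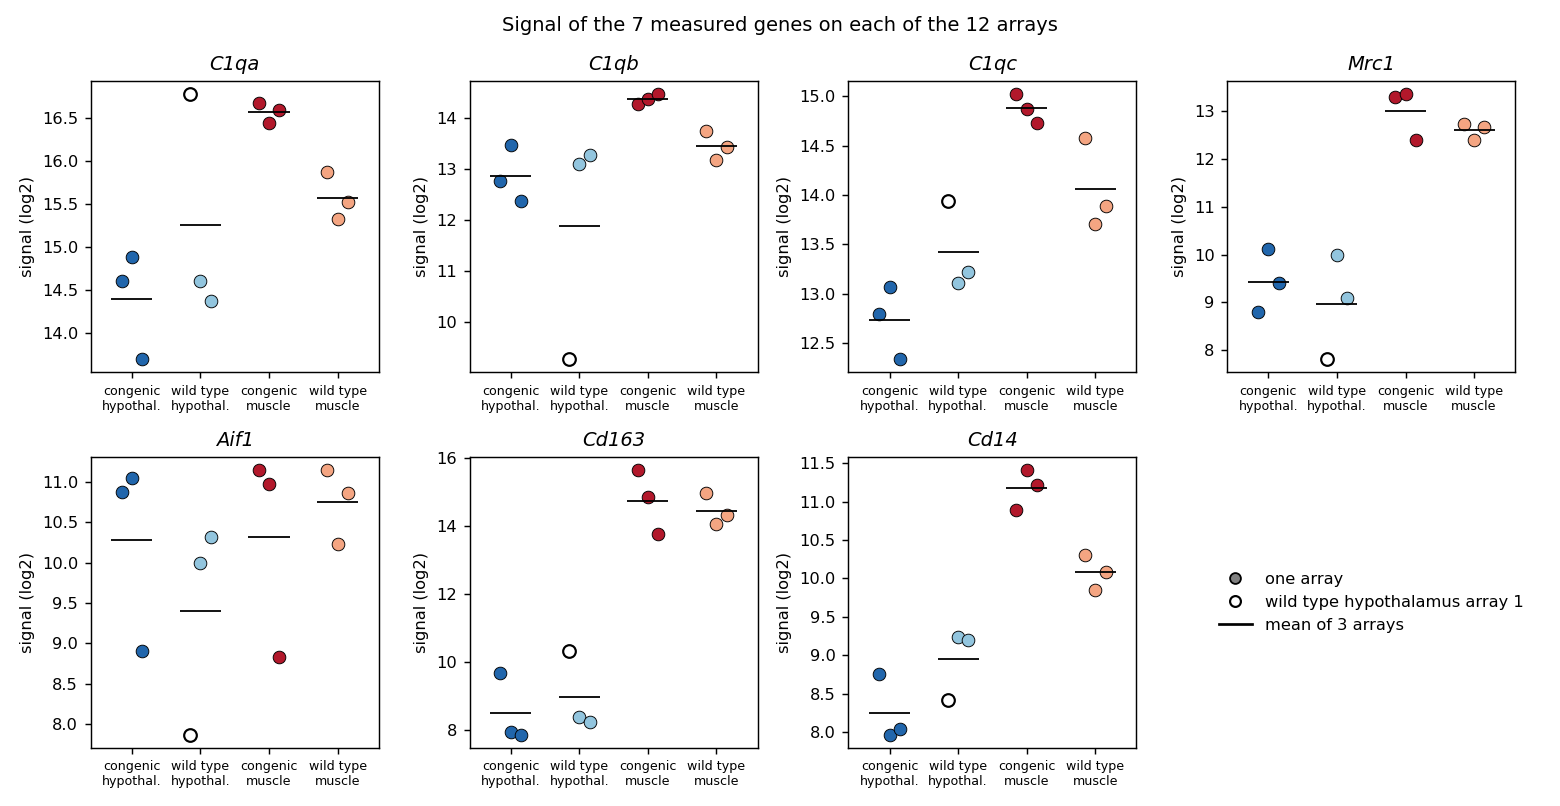
Log2 signal of the 7 measured genes (1 panel each, own axis) on each array, in congenic and wild type hypothalamus and in congenic and wild type muscle; points are arrays, lines are means of 3 arrays, and the open point is wild type hypothalamus array 1. C1qa, C1qb, C1qc and Cd14 lie higher on every congenic than on every wild type muscle array, and the open point lies far from its group for C1qa and C1qb.

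Cd14 was the other gene whose muscle groups did not overlap. It read 10.89, 11.41 and 11.22 in congenic muscle, against 10.31, 9.85 and 10.09 in wild type muscle. The difference was 1.09, or 2.13-fold, with an SE of 0.31, a 95% interval of 0.38 to 1.79 and a limma adjusted p of 0.835. The scavenger receptors varied more within groups. Mrc1 read 13.29, 13.35 and 12.39 in congenic muscle, against 12.74, 12.40 and 12.68 in wild type muscle, and Cd163 read 15.64, 14.83 and 13.75 in congenic muscle, against 14.95, 14.04 and 14.31 in wild type muscle. Both overlapped between the strains, with a difference of 0.40 for Mrc1 (interval -0.23 to 1.04, limma adjusted p 0.835) and 0.31 for Cd163 (interval -0.64 to 1.25, adjusted p 0.897). Aif1 read 11.15, 10.97 and 8.83 in congenic muscle, against 11.14, 10.23 and 10.86 in wild type muscle, a difference of -0.43 (interval -1.74 to 0.88, adjusted p 0.897). Congenic muscle array 3 was the lowest of the 6 muscle arrays for Mrc1, Cd163 and Aif1. For the C1q chains and Cd14 it lay above every wild type muscle array. Without that array the difference of Aif1 was 0.31.

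Counted together, 0 of the 7 genes passed limma's test in muscle, where 0.0182% of all probes were called, and 4 of the 7 had an unadjusted p under 0.05, where 5.01% of all probes did. The groups lay apart with congenic higher for 4 of 7 genes and with congenic lower for 0 of 7. Over all probes these shares were 6.65% and 5.27%. The members were chosen with earlier results of these data known, so the shares are a description and not a test. The 3 chains cannot be counted as separate evidence on strain, since they come from the same 6 RNA samples. Their order over the arrays was the same in wild type muscle and differed between the chains in congenic muscle.

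The start regions of C1qb and C1qc are shown because both genes were higher on every congenic than on every wild type muscle array. Those of Mrc1, Aif1 and Cd163 are shown because they are macrophage genes whose muscle groups overlapped. Each runs 5′ to 3′ on the gene's strand, from 250 bases before to 50 bases after the annotated start, in RefSeq's annotation of GRCm38.p6. The table held 5 of the members that could be shown, C1qb, C1qc, Mrc1, Aif1 and Cd163, and not C1qa. The regions are chr4:136886151-136886450 (minus strand) for C1qb, chr4:136892865-136893164 (minus strand) for C1qc, chr2:14229164-14229463 (plus strand) for Mrc1, chr17:35176003-35176302 (minus strand) for Aif1 and chr6:124304401-124304700 (plus strand) for Cd163. Capitals mark GAGGAA, or TTCCTC where it lies on the other strand, the core bound by PU.1, the transcription factor of the myeloid lineage encoded by Spi1.
C1qb promoter: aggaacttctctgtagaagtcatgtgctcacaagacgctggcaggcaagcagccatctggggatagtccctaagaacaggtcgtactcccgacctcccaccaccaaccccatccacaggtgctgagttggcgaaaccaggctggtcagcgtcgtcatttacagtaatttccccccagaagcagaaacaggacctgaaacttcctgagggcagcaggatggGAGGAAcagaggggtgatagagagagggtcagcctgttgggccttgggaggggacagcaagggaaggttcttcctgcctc
C1qc promoter: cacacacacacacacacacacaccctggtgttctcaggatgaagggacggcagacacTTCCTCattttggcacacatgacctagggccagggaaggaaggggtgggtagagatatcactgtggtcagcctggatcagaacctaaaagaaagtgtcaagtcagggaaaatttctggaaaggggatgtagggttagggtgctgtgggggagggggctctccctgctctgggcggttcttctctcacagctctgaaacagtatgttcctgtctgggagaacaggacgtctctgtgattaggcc
Mrc1 promoter: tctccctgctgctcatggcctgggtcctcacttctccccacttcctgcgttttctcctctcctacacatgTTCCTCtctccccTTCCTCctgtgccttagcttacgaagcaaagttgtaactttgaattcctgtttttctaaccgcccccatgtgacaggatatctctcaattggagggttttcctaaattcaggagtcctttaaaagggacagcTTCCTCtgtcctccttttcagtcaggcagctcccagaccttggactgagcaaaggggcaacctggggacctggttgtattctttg
Aif1 promoter: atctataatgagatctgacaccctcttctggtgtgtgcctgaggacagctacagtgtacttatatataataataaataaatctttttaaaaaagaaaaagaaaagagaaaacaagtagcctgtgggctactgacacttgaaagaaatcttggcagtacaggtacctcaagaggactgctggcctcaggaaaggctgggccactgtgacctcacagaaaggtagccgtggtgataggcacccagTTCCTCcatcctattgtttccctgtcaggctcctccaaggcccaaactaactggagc
Cd163 promoter: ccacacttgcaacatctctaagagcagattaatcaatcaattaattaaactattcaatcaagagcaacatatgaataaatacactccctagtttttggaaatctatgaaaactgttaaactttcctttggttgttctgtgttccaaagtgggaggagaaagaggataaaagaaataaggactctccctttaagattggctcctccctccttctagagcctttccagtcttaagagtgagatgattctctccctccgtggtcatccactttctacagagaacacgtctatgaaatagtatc
GAGGAA was found at bases 221 to 226 of the C1qb region, 30 to 25 bases before the start, and at bases 58 to 63 of the C1qc region on the other strand. The Mrc1 region held 3 matches and the Aif1 region 1, at bases 244 to 249, all on the other strand, and the Cd163 region held none. Some match to it occurred in 28.3% of 32851 such regions, so its presence in 4 of the 5 is a description only. TGANTCA (AP-1, in 7.81% of regions) and TATAAA (in 13.6%), searched on both strands, were not in these 5 windows.

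Other macrophage genes had the same sign in muscle more often than not. Of 44 further macrophage and microglia markers 34 were measured, and 28 had a higher mean in congenic muscle, with a median difference of 0.42. Of 29 measured scavenger and lectin receptors 25 had a higher congenic mean, with a median of 0.36. Over all 13840 named genes 53.4% had a higher congenic mean, and the median was 0.03. None of these genes passed limma's test, although 7 and 4 of them had an unadjusted p under 0.05. Groups lay apart with congenic higher for 6 of the 34 and 7 of the 29 genes and with congenic lower for 0 of either list, where the shares over all named genes were 7.34% and 5.05%. The lists too were chosen with earlier results of these data known, so such counts are a description only. Apoe, a lipid carrier that macrophages secrete, averaged 17.07 in congenic and 16.39 in wild type muscle, 0.68 apart (SE 0.17). Cyba, a subunit of the phagocyte oxidase, averaged 14.58 in congenic and 13.77 in wild type muscle, 0.81 apart (SE 0.22). Folr2, the folate receptor of resident macrophages, differed by 0.72 (SE 0.23) and F13a1, the coagulation factor XIII subunit that macrophages also make, by 0.68 (SE 0.25). All had an adjusted p of 0.835.

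Partners of the measured proteins were mixed in muscle. Among 22 measured complement partners and regulators 12 had a higher congenic mean (median difference 0.07). Cfb, the protease of the alternative pathway, averaged 11.45 in congenic and 10.07 in wild type muscle, 1.38 apart (SE 0.35), and lies on chromosome 17. Masp1, a protease of the lectin pathway, differed by 1.39 (SE 0.45). Among 14 relatives of C1q with the same globular domain 10 were higher (median 0.18), with C1qtnf4, a secreted relative, at 0.92 and Emilin2, a glycoprotein of the elastic matrix, at 0.51. Emilin2 too lies on chromosome 17. The list of Csf1r ligands and myeloid transcription factors also held other colony-stimulating factor and receptor genes. Of its 15 measured genes 8 were higher (median 0.01), and the 2 with the smallest p were lower in congenic muscle. They were Csf3r, the receptor of granulocyte colony-stimulating factor, by -0.62 and Csf2, a growth factor of macrophages and granulocytes, by -0.94. Of 19 Tyrobp partners and signalling genes 12 were higher (median 0.17), with Fcgr3, an antibody receptor, at 0.68 and Btk, a kinase downstream of such receptors, at 1.19. Of 18 genes around Cd14 and toll-like receptors 9 were higher (median -0.01), with Lbp, which hands lipopolysaccharide to Cd14, at 0.55 and Irak3, an inhibitor of the pathway in macrophages, at 1.30. No gene of these 5 lists passed, and each of the named ones had an adjusted p of 0.835 by limma. Masp1 averaged 8.46 in congenic and 7.08 in wild type muscle, and Csf2 8.02 in congenic and 8.96 in wild type muscle. These means, and the wild type means of Btk (8.24) and Irak3 (7.83), lay below the muscle array median of 9.12. The differences of these genes thus rest on signal not shown to be above background.

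The macrophage lists were not alone in this. Per array, the median of the 34 macrophage markers was 10.7 to 11.2 in congenic and 10.2 to 10.4 in wild type muscle, that of the 29 scavenger receptors 11.7 to 11.9 in congenic and 11.1 to 11.3 in wild type muscle, and that of the 22 complement genes 11.4 to 11.6 in congenic and 10.6 to 10.9 in wild type muscle. Only 12 of the 22 complement genes were higher, with a median gene difference of 0.07, so their array medians do not stand for the typical gene. Of the 20 lists examined, 8 had medians that did not overlap, and all 8 were higher in congenic muscle. The other 5 were lists of other cell types. The median of 13 T and NK cell markers was 8.62 to 9.37 in congenic and 8.16 to 8.36 in wild type muscle, and that of 8 B cell markers 9.24 to 9.52 in congenic and 8.40 to 9.23 in wild type muscle. For 5 erythroid markers it was 9.13 to 9.90 in congenic and 8.75 to 8.84 in wild type muscle, and for 12 fibroblast and tendon markers 14.5 to 14.6 in congenic and 14.0 to 14.3 in wild type muscle. For 7 anterior pituitary markers it was 8.74 to 9.62 in congenic and 7.83 to 8.62 in wild type muscle. The wild type medians of the T and NK cell, erythroid and pituitary lists lay below the muscle array median of 9.12. Those of the B cell list lay near or below it. Without detection calls, signals near these medians were not shown to be above background. The log2 of a list's summed signal, to which the brightest genes add most, overlapped between the strains for 5 of these 8 lists. Among the lists of macrophage and complement genes it overlapped for the scavenger receptors, at 18.59 to 18.74 in congenic and 18.33 to 18.61 in wild type muscle. It did not for the macrophage markers, at 19.5 to 19.6 in congenic and 19.04 to 19.3 in wild type muscle, or for the complement genes, at 19.02 to 19.5 in congenic and 18.7 to 18.9 in wild type muscle. For the other cell types it was 14.09 to 14.30 in congenic and 14.12 to 14.33 in wild type muscle for T and NK cells, 12.4 to 12.6 in congenic and 12.2 to 12.5 in wild type muscle for B cells, 17.996 to 18.96 in congenic and 17.3 to 18.1 in wild type muscle for erythroid cells, and 13.04 to 13.57 in congenic and 12.88 to 13.37 in wild type muscle for the pituitary, and all 4 overlapped. For fibroblasts it was 20.9 to 21.1 in congenic and 20.6 to 20.8 in wild type muscle and did not overlap. No marker is listed at 0, since the lowest value of the matrix is 5.35. The T and NK cell markers had a median gene difference of 0.18, also less than the gap between their array medians. Skeletal muscle markers, 10 genes, had a median difference of -0.01. The part of other cell types in the C1q and Cd14 values was not tested.

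**Figure D2:**
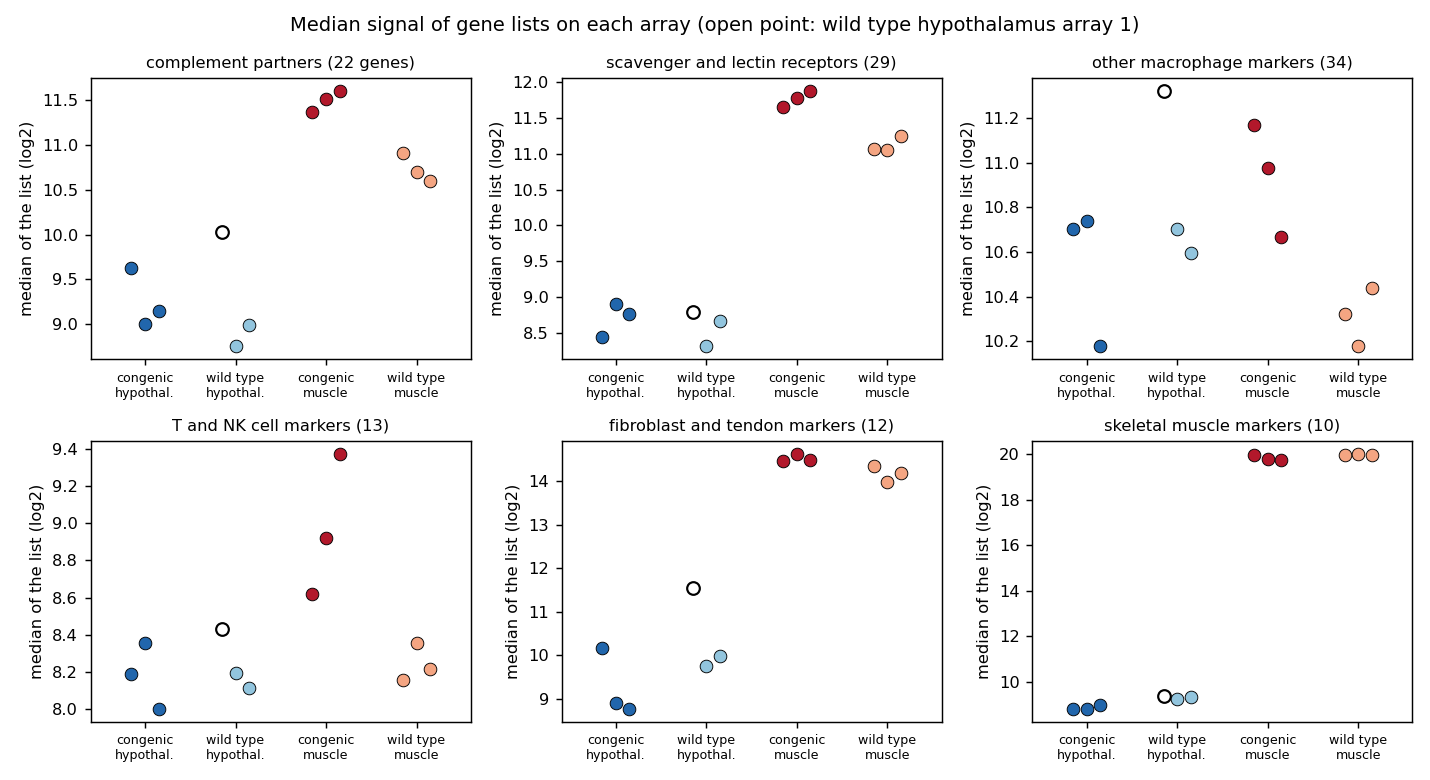
Median log2 signal of 6 gene lists on each array, in congenic and wild type hypothalamus and in congenic and wild type muscle; each point is 1 array and the open point is wild type hypothalamus array 1. Congenic muscle lies above wild type muscle for all lists drawn except the skeletal muscle markers, and the hypothalamus arrays overlap between the strains for the macrophage markers.

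In hypothalamus none of the 7 genes passed the test, with or without wild type array 1, and every 95% interval of a strain difference held 0. C1qa read 14.61, 14.88 and 13.70 on the congenic hypothalamus arrays, against 16.77, 14.61 and 14.38 on the wild type arrays. C1qb read 12.76, 13.46 and 12.36 in congenic hypothalamus, against 9.28, 13.09 and 13.27 in wild type hypothalamus. C1qc read 12.79, 13.07 and 12.34 in congenic hypothalamus, against 13.94, 13.11 and 13.22 in wild type hypothalamus. Wild type array 1, the first value of each wild type set, was the highest of the 6 for C1qa and C1qc and the lowest for C1qb. With it, the strain difference was -0.86 for C1qa (95% interval -2.66 to 0.94), 0.98 for C1qb (interval -1.50 to 3.46) and -0.69 for C1qc (interval -2.06 to 0.67). Without it, the differences were -0.10 for C1qa (interval -0.998 to 0.81), -0.32 for C1qb (interval -1.15 to 0.51) and -0.43 for C1qc (interval -1.14 to 0.27). The sign of C1qb thus rested on that array. Limma's adjusted p was 0.936 for each chain with all arrays and between 0.900 and 0.981 without array 1.

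The remaining members were low or scattered in hypothalamus. Cd14 read 8.75, 7.97 and 8.04 in congenic hypothalamus, against 8.42, 9.24 and 9.20 in wild type hypothalamus. The difference was -0.70 (interval -1.91 to 0.51). Without wild type array 1 it was -0.97 (interval -2.14 to 0.21, adjusted p 0.900), and every congenic value then lay below both wild type values. Aif1 read 10.87, 11.05 and 8.90 in congenic hypothalamus, against 7.87, 10.0004 and 10.31 in wild type hypothalamus. Its difference was 0.88 with and 0.12 without array 1. Mrc1 read 8.81, 10.11 and 9.40 in congenic hypothalamus, against 7.82, 9.98 and 9.10 in wild type hypothalamus. Cd163 read 9.68, 7.93 and 7.87 in congenic hypothalamus, against 10.32, 8.38 and 8.24 in wild type hypothalamus. Both overlapped, and their differences changed sign without array 1, to -0.10 against 0.47 with it for Mrc1 and to 0.18 against -0.48 with it for Cd163. Several of these values lay near or below the array median of 8.98, and without detection calls they cannot be told from background.

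Across all probes limma called 0% in hypothalamus with all arrays, where 658 probes (1.99%) had an unadjusted p under 0.05, and 0% without array 1, where 1761 (5.33%) did. Of the 7 genes 0 had an unadjusted p under 0.05 in either fit. Groups lay apart with congenic lower for C1qc alone with all arrays, where 5.69% of all probes did so, and for C1qc and Cd14 without array 1, where 13.3% did. None lay apart with congenic higher, where 3.47% of all probes did with all arrays and 9.32% without array 1. C1qc and Cd14 were the 2 of the 7 genes whose groups lay apart with congenic higher in muscle and lower in hypothalamus without array 1, as did 1.05% of all probes.

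**Figure D3:**
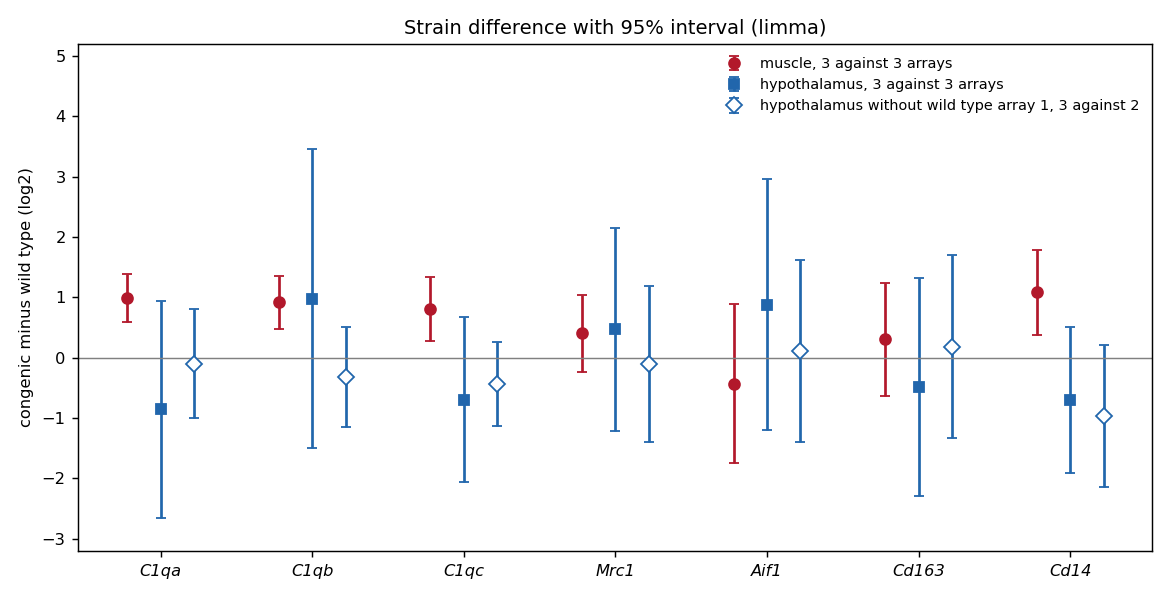
Strain difference (congenic minus wild type, log2) of each measured gene with its 95% interval from limma, in muscle, in hypothalamus with all arrays, and in hypothalamus without wild type array 1 (open diamonds). The muscle intervals of C1qa, C1qb, C1qc and Cd14 lie above 0, and every hypothalamus interval holds 0.

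The partner lists in hypothalamus held no gene that passed. Of the 34 macrophage and microglia markers 14 had a higher congenic mean with all arrays (median difference -0.07) and 12 without array 1 (median -0.17). Of the 29 scavenger receptors 13 did so with all arrays (median -0.06) and 14 without array 1 (median -0.02). Over all named genes 48.8% were higher with all arrays (median -0.02) and 44.5% without array 1 (median -0.07). The smallest p among the scavenger receptors was that of Stab1, a clearance receptor, with -1.60 in the full set and -1.40 without array 1. Its congenic mean of 8.24 lay below the array median. Among the macrophage markers the smallest p was that of Ccr2, the chemokine receptor of monocytes, with -0.98 in the full set and -1.03 without array 1. The signal of Ccr2 lay below the array median in both strains. Selplg, a selectin ligand high in microglia, differed by 0.19 in the full set and by -1.16 without array 1, so its sign rested on that array. Clu, a secreted complement inhibitor, differed by -1.16 with all arrays and by -0.95 without array 1. Serping1, the inhibitor of the C1 proteases, differed by 0.01 with all arrays and by 0.73 without array 1. Limma's adjusted p of these genes was 0.936 to 0.998 with all arrays and 0.900 to 0.901 without array 1.

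The strain differences of the tissues were set against each other in 1 fit of all arrays, as the hypothalamus difference minus the muscle difference. If the congenic mice of the tissues came from different lines, which the labels do not settle, this contrast also holds that difference. With 12 arrays the value was -1.85 for C1qa (interval -3.65 to -0.04), 0.06 for C1qb (interval -2.47 to 2.59) and -1.51 for C1qc (interval -2.81 to -0.21). Without wild type hypothalamus array 1 the 3 chains gave close values, -1.09 for C1qa (interval -2.05 to -0.12), -1.24 for C1qb (interval -2.16 to -0.33) and -1.25 for C1qc (interval -2.14 to -0.36). Cd14 gave -1.79 with 12 arrays (interval -3.17 to -0.41) and -2.06 with 11 (interval -3.26 to -0.85). Mrc1, Aif1 and Cd163 gave 0.07, 1.31 and -0.79 with 12 arrays and -0.51, 0.55 and -0.12 with 11. No gene passed: limma's adjusted p was 0.913 to 0.994 with 12 arrays and 0.628 to 0.982 with 11, and 0% of all probes were called in both. An unadjusted p under 0.05 was reached by 3 of the 7 genes with 12 arrays, where 3.63% of all probes reached it, and by 4 with 11, where 6.74% did. A strain difference confined to muscle was therefore not shown for any of these genes.

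Between the tissues 5 of the 7 genes passed the test. Averaged over both strains, Cd163, Mrc1, Cd14, C1qa and C1qc were lower in hypothalamus than in muscle, while C1qb and Aif1 did not pass. The fold was 2.37 for C1qa and 2.62 for C1qc, on tissues scaled apart. For Cd163, Mrc1 and Cd14 the mean hypothalamus signal lay near or below the array median and was not shown to be above background. Their differences below are therefore differences of signal that can understate the difference of expression. Cd163 averaged 8.74 ± 1.02 in hypothalamus and 14.59 ± 0.69 in muscle (SD, n = 6 each), a difference of -5.85 (interval -6.92 to -4.78, limma adjusted p 1.03e-06). Mrc1 averaged 9.20 ± 0.84 in hypothalamus and 12.81 ± 0.42 in muscle, a difference of -3.60 (interval -4.49 to -2.72, adjusted p 1.61e-05). Cd14 averaged 8.60 ± 0.55 in hypothalamus and 10.63 ± 0.64 in muscle, a difference of -2.02 (interval -2.71 to -1.33, adjusted p 0.000281). For these 3 genes no hypothalamus array reached the lowest muscle array.

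The C1q chains were bright in both tissues, apart from C1qb on wild type hypothalamus array 1. C1qa averaged 14.83 ± 1.03 in hypothalamus and 16.07 ± 0.58 in muscle (SD, n = 6 each), a difference of -1.25 (interval -2.15 to -0.34) with a limma adjusted p of 0.0383. C1qb averaged 12.37 ± 1.56 in hypothalamus and 13.91 ± 0.54 in muscle, a difference of -1.54 (interval -2.80 to -0.27) that did not pass at 0.0659. C1qc averaged 13.08 ± 0.53 in hypothalamus and 14.47 ± 0.54 in muscle, a difference of -1.39 (interval -2.04 to -0.74, adjusted p 0.00306). Aif1 averaged 9.84 ± 1.23 in hypothalamus and 10.53 ± 0.90 in muscle, a difference of -0.70 (interval -1.94 to 0.55, adjusted p 0.419). Each of the 5 genes that passed was lower in hypothalamus, where 29.5% of all probes passed, 18.5% as lower and 11% as higher. Groups lay apart, lower in hypothalamus, for 3 of the 7, where 13.3% of all probes did.

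Wild type hypothalamus array 1 weighed on the C1q chains here as well. Without it C1qa differed by -1.63 (adjusted p 3.31e-05), C1qb by -0.89 (adjusted p 0.0036) and C1qc by -1.52 (adjusted p 3.05e-05) by limma. Mrc1 then differed by -3.32, Cd163 by -6.18, Cd14 by -1.89 and Aif1 by -0.32 (adjusted p 0.650). Without the array 6 of the 7 passed, where 40.5% of all probes passed and 24.8% passed as lower, and groups lay apart for C1qa, C1qc, Mrc1, Cd163 and Cd14, where 17.7% of all probes lay apart as lower. When all 12 arrays were given a common distribution, the median of all probes moved from -0.17 to 0.01. C1qa was then -0.56 and no longer passed (adjusted p 0.394), C1qb was -1.17 (adjusted p 0.182), and C1qc, at -0.95, still passed (adjusted p 0.0350), as did Cd163 at -5.51, Mrc1 at -3.42 and Cd14 at -1.90. The adjusted p of C1qa also exceeded 0.05 when any one of 10 other arrays was left out, up to 0.0905.

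**Figure D4:**
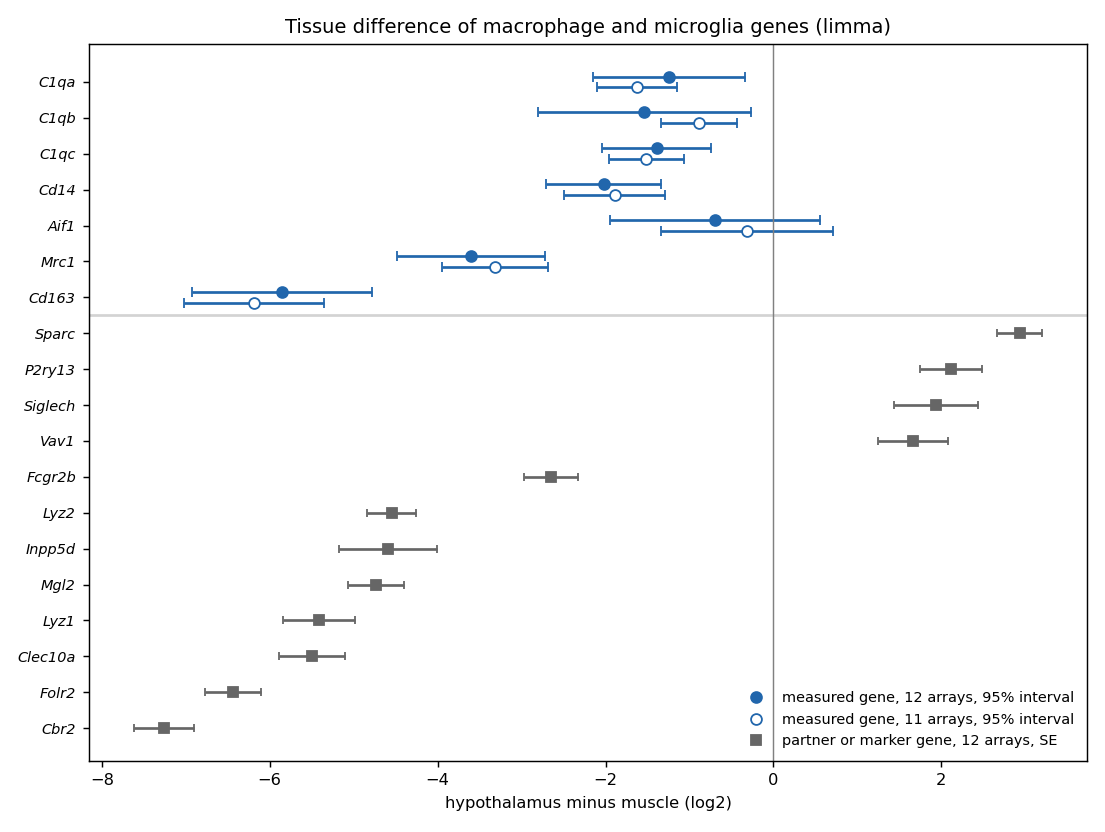
Difference between the tissues (hypothalamus minus muscle, log2, averaged over strains). Circles are the measured genes with 95% intervals from limma, filled for 12 arrays and open for the 11 without wild type hypothalamus array 1; squares are named genes of 3 partner or marker lists with their SE over 12 arrays. Cd163, Mrc1, Cbr2, Folr2, Clec10a and Mgl2 lie far to the left, at hypothalamus signals not shown to be above background, and the C1q chains and Aif1 lie nearer 0.

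The wider lists held genes on both sides. Of 29 scavenger and lectin receptors 17 passed as lower and 1 as higher in hypothalamus with 12 arrays and with 11 (median difference -1.28 with 12), where 23.3% of all named genes passed as lower and 12.6% as higher with 12 arrays (median -0.26) and 30.4% as lower and 19.1% as higher with 11. The 4 with the smallest p all were lower in hypothalamus, where their means lay below the array median. Cbr2, a carbonyl reductase of resident macrophages, averaged 8.94 in hypothalamus and 16.20 in muscle, and Folr2 averaged 8.15 in hypothalamus and 14.59 in muscle. The lectin Clec10a averaged 8.41 in hypothalamus and 13.90 in muscle, and the lectin Mgl2 8.33 in hypothalamus and 13.07 in muscle. Of the 34 other macrophage and microglia markers 10 passed as lower and 6 as higher with 12 arrays (median -0.23), and 12 as lower and 9 as higher with 11. Lysozymes Lyz1 and Lyz2 were lower by -5.41 and -4.55, while P2ry13, a nucleotide receptor of microglia, and Sparc, a matrix protein also made by other cells, were higher by 2.12 and 2.93. Siglech, a lectin of microglia that signals through Tyrobp, was higher by 1.94 (limma adjusted p 0.00931). Vav1, an exchange factor of blood cells, was higher by 1.66. Fcgr2b, the inhibitory antibody receptor, and Inpp5d, a phosphatase that dampens such receptors, were lower by -2.65 and -4.59. In all 2 of 19 Tyrobp partners passed as higher and 4 as lower with 12 arrays, and 2 as higher and 5 as lower with 11.

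Of 22 complement partners 7 passed as lower and 2 as higher in hypothalamus with 12 arrays, beside the 23.3% and 12.6% of all named genes, and 10 as lower and 2 as higher with 11. C1ra, a protease that C1q carries, was lower by -5.82 with 12 arrays and by -6.44 with 11, and Serping1, which blocks that protease, by -5.23 and -5.60. Cd55, a membrane regulator of complement, was lower by -3.05 and Mbl2, a lectin that starts the lectin pathway, by -2.80. Among the 14 relatives of C1q 4 passed as higher, led by Cbln1, a synapse organizer of neurons, at 7.36, and 6 as lower, among them C1qtnf9, a secreted relative, at -3.85 (with 11 arrays 4 as higher and 7 as lower). Of the 15 genes listed with Csf1r ligands, related growth factor receptors and myeloid factors 1 passed as higher, Csf2ra (the Csf2 receptor chain) at 1.97. As lower 4 passed, among them the myeloid factors Cebpb at -3.87 and Cebpa at -2.45 and the sterol-sensing receptor Nr1h3 at -2.81 (with 11 arrays 1 as higher and 5 as lower). Of 18 genes around Cd14 0 passed as higher and 4 as lower with 12 arrays, and 1 as higher and 6 as lower with 11, with Lbp at -2.40, Tirap, an adaptor of the receptors, at -2.10, Map3k7, a kinase of the pathway, at -1.84 and Il6, a cytokine it induces, at -0.84. Of the 26 genes named from these lists 25 passed in the same direction with 11 arrays, and Il6 did not (adjusted p 0.0549 by limma). In hypothalamus 11 of the 26 had a mean below the array median (Cbr2, Folr2, Clec10a, Mgl2, Fcgr2b, Inpp5d, C1ra, C1qtnf9, Cebpa, Tirap and Il6). In muscle 5 did (P2ry13, Siglech, Vav1, Cbln1 and Il6). Their differences rest on a signal not shown to be above background, so their sizes can understate the difference of expression. Many of these genes are also expressed outside macrophages, so the lists do not measure that cell type alone.

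The 3 chains were then compared with each other array by array. When each was centred on its own mean over the 11 arrays without wild type hypothalamus array 1, the distance between the highest and the lowest chain on an array was 0.24 to 0.74. On wild type hypothalamus array 1 it was 5.66, with C1qa at 1.45, C1qc at 0.18 and C1qb at -4.21 from their means. It was the only array of the 12 on which the chains lay more than 1 apart. For each of the 3 chains the mean was highest in congenic muscle, next in wild type muscle and lower in both hypothalamus groups. The hypothalamus groups overlapped for C1qa and C1qb, and over 11 arrays their means differed by less than 0.5 for each chain. For Cd14 the order was congenic muscle, wild type muscle, wild type hypothalamus and congenic hypothalamus.

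**Figure D5:**
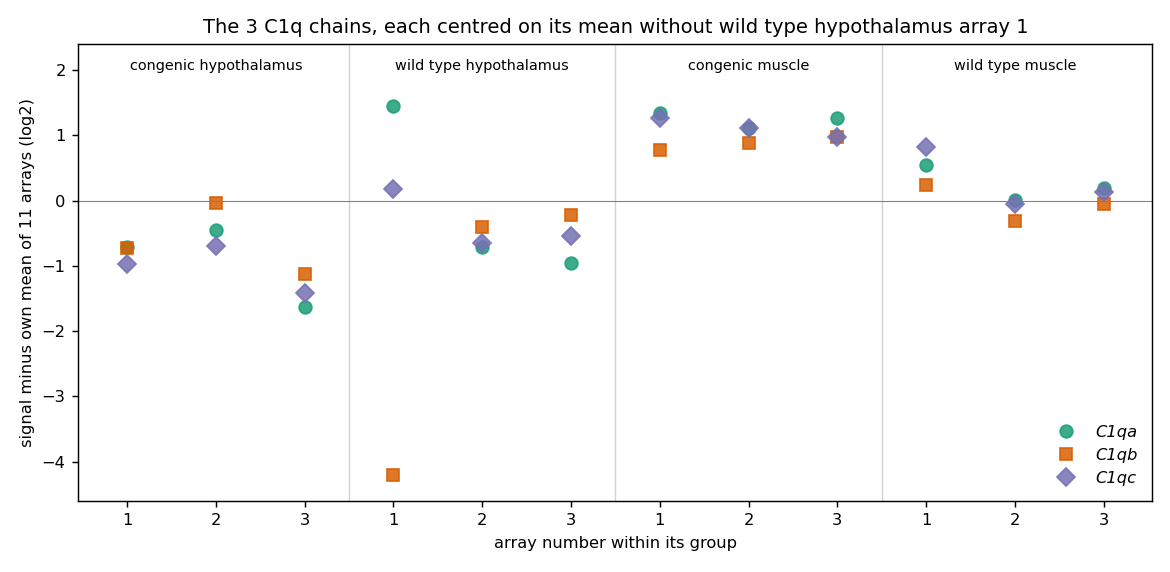
Log2 signal of C1qa, C1qb and C1qc on each array minus the gene's own mean over the 11 arrays without wild type hypothalamus array 1; arrays are numbered within their groups. The chains lie within 0.74 of each other on 11 arrays and 5.66 apart on wild type hypothalamus array 1.

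Likeness to the mean C1q profile was measured as the root mean square difference of centred log2 profiles over 13840 genes, with no test. Over 11 arrays the nearest genes were C1qc (0.15) and C1qa (0.18), which helped to form that profile, followed by Metrnl (0.24) and Gng12 (0.24), then C1qb (0.25), Cavin3 (0.27), Fcgr3 (0.28) and Nudt1 (0.28). C1qa and C1qc were each other's nearest gene (0.22). C1qb was farther from both: it ranked 102 from C1qa (0.40) and 42 from C1qc (0.36), and from C1qb itself C1qc ranked 91 and C1qa 186. Over 12 arrays the nearest genes other than C1qc were Ftl1, Ccs, Srpk1, Cavin3 and Rtp4 (0.33 to 0.34), and C1qa and C1qb lay 1.61 apart. Only Cavin3 was among the 5 nearest other genes in both sets. Cd14 ranked 656 over 11 arrays (0.50), while Aif1 (rank 7049), Mrc1 (rank 8373) and Cd163 (rank 13084) were far from the C1q profile. The points share 2 tissues and 2 strains, so genes with like tissue differences score as near.

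Aif1 is the only member on chromosome 17, between Prrc2a and Lst1. The limits of the congenic segment are not given in the labels used here, so whether Aif1 lies in it is not known from them. Of the 20 measured genes nearest to it, 10 on each side, 13 had a higher congenic mean in muscle (median 0.27, range -2.49 to 1.39) and 9 in hypothalamus both with array 1 (median -0.09) and without it (median -0.03). None of the 20 passed in either tissue by limma.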

How the data were processed

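RNA of 12 samples (B6.CAST-17 congenic and wild type B6 mice, hypothalamus and skeletal muscle, 3 arrays each) was labelled with digoxigenin for Applied Biosystems chemiluminescent arrays, per the labels' protocols. The authors deposited processed log2 values, quantile-like within a tissue. The sources used here name no software or background correction and hold no detection calls, and the base of the log was inferred. Signal over background is thus unknown, and the number of arrays limits precision. Groups came from the sample titles, because the descriptions give the congenic strain throughout. Of the probes, 14411 had 1 gene symbol, 247 several and 18354 none; 14402 matched the GRCm38.p6 gene table.

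Values were used as deposited with no filter. Linear models (limma 3.58.1, R 4.3.3, empirical Bayes moderation along the mean-variance trend) were fitted over all 33012 probes, per tissue for strain and over 12 arrays for the interaction and tissue contrasts. P-values were Benjamini-Hochberg adjusted with a threshold of 0.05 and are two-sided. The fits were tested on simulated data. Array numbers did not meet the rule for pairing (every correlation over 0.1), within or across tissues.

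The members and the 20 gene lists were chosen with earlier results of these data known. A listed gene is represented by its probe with the highest mean. Named were all members, up to 4 passed genes per list and comparison by smallest p (for partner lists with none passed, 2, given as values), and the 5 genes nearest the C1q profile. Not every gene the rule allows is named. Alternatives were no trend, dim probes left out, a floor, quantile normalization over 12 arrays, a fit of all arrays, array weights, the array number as a block, that block within strain (added after seeing the data), and each array left out.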

Additional observations from a re-analysis of the deposited data

Results flagged for a closer look

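C1qc lay higher on every congenic than on every wild type array in muscle and lower on every congenic than on every wild type array in hypothalamus. The hypothalamus groups nearly touched, with a highest congenic value of 13.07 and a lowest wild type value of 13.11. The hypothalamus difference minus the muscle difference was -1.51 with all 12 arrays and -1.25 without wild type hypothalamus array 1. Cd14 showed the same opposite separation only without that array, with a value of -2.06. Without it 1.05% of all probes lay apart in these directions in both tissues. The share with all 12 arrays was not counted. The test of the difference itself did not pass for either gene: limma's adjusted p was 0.913 for C1qc with 12 arrays, 0.692 for C1qc with 11 and 0.628 for Cd14 with 11. Over all probes 0% were called in that test.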

How the results depend on the processing

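No call of a strain difference or of a difference of strain differences was gained or lost by any of the 7 measured genes under any alternative run. With dim probes left out, Cd14 and Cd163 had no value in hypothalamus. The count of probes called over the whole array in muscle, 6, was 2 without the mean-variance trend, 2 with a floor at the 20th percentile and 1 in a fit of all 12 arrays, and ranged from 2 to 8 when arrays were left out in turn. In hypothalamus the count stayed 0. For the difference of strain differences it was 0, and 1 with array weights. For the tissue difference it was 9753, and 14789 with array weights, with a range of 8413 to 13381 when arrays were left out. Array weights turned the strain difference of Aif1 in muscle to 0.018, where congenic muscle array 3 had a weight of 0.40. In hypothalamus, where wild type array 1 had a weight of 0.10, they turned those of C1qb to -0.17, Mrc1 to -0.34 and Cd163 to 0.43, and in the fit of all arrays, where it had 0.065, the difference of strain differences of C1qb to -1.08 and of Mrc1 to -0.94. Leaving out arrays in turn gave -0.84 to 0.31 for Aif1 and -0.14 to 0.80 for Cd163 in muscle, -0.32 to 1.68 for C1qb, -0.10 to 0.98 for Mrc1 and -1.08 to 0.18 for Cd163 in hypothalamus, and -1.24 to 0.76 for C1qb and -0.51 to 0.57 for Mrc1 as differences of strain differences. The muscle differences kept their sign throughout for C1qa (0.87 to 1.14), C1qb (0.78 to 1.06), C1qc (0.64 to 1.08) and Cd14 (0.97 to 1.23). Between the tissues C1qa lost its call after a common normalization of 12 arrays and without any one of 10 arrays (-1.63 to -1.03 over all omissions, adjusted p 3.31e-05 to 0.0905), and C1qb gained one with array weights (-0.90), with dim probes left out and without any one wild type hypothalamus array (-1.89 to -0.89 over all omissions). The common normalization changed the share of higher among called probes from 37.3% to 47.1%. The cause of these shifts was not tested. The replicate number as a block left the called probes at 6 in muscle and 9648 between the tissues and C1qa at an adjusted p of 0.311 in muscle. Same-numbered arrays correlated by -0.13 to 0.14 in their deviations within a tissue. Across tissues they correlated by 0.021 to 0.035 in congenic and 0.020 to 0.076 in wild type mice, all positive and under the 0.1 set for pairing, and the own number gave the highest correlation for 3 of 3 congenic and 1 of 3 wild type numbers, a hint from the data only. A replicate block within strain, chosen after seeing the data, called 9148 probes between the tissues and 0 for the difference of strain differences, and changed no call of the 7 genes.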
